A study of Mus musculus with 10 samples.

Results

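The regions described here are the 6857 CUT&Tag regions that the authors' annotation places in the first intron of a transcript, of 69418 regions in all (9.88%) and of 24924 intronic regions (27.5%). They were chosen by annotation text alone, as intronic regions named as intron 1 of a transcript, with no use of the measured values. The cells were NSPCs, the neural stem and progenitor cells of the brain, taken from mice and purified. They were labelled Mina53-KO (KO) or wild type (WT), with no treatment. CUT&Tag was run on 2 KO libraries and 2 WT libraries, and poly(A) RNA-seq on 3 KO libraries and 3 WT libraries. Mina53, now named Riox2, is a JmjC-domain oxygenase, and the series title concerns an arginine demethylase activity of it on histone H4. The labels give no antibody, strain, age, brain region and no method of making the KO. Nor do they tie the libraries to separate animals or cultures, so each p-value speaks only of the variation among the libraries sequenced.

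The first intron of a gene lies just behind its transcription start site (TSS), and in many genes it is the longest intron. It often holds enhancers and alternative promoters, which act on the same gene or on a neighbour. CUT&Tag tethers a transposase to an antibody-bound chromatin feature and sequences the DNA cut beside it, so a region with more reads held more of that feature or was more open to the enzyme. Genes of synaptic adhesion and ion channels, many of which are expressed in neural cells, are among the longest of the genome.

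In RNA-seq, Riox2 had 3.26, 3.78 and 3.70 CPM (counts scaled to library size) in KO libraries and 19.96, 17.2 and 18.5 CPM in WT libraries (log2 fold change, KO over WT, -2.37, SE 0.15, adjusted p = 0.000324 by edgeR's quasi-likelihood test over all genes). The groups did not overlap, and Riox2 holds no first-intron region. The CUT&Tag libraries held 4038765 and 3369232 reads in regions in KO and 3125267 and 2913959 reads in WT. RNA-seq libraries held 19923010 to 25939376 counts, of which mitochondrial genes took 2.65 to 4.64% in KO and 2.31 to 5.71% in WT. Summed over 26 neural stem and radial glia markers, the RNA reached 11678 to 11997 CPM in KO and 9620 to 9934 CPM in WT. Of these 26 genes, all tested, Vim and Tnc were called higher and Hopx lower, where 1.77% of all 15298 genes tested were called higher and 1.66% lower. Vim alone gave 2738 to 3632 CPM in KO and 1822 to 2241 CPM in WT, and Tnc 944 to 977 CPM in KO and 401 to 434 CPM in WT. The sum over 18 astrocyte markers was 5710 to 6121 CPM in KO and 7088 to 8079 CPM in WT, with 5 of the 18 called lower and 0 higher. The 27 markers of intermediate progenitors, neuroblasts and neurons summed to 1949 to 2266 CPM in KO and 1602 to 1843 CPM in WT, with 9 of 24 tested called higher and 0 lower. Of the 12 microglia markers only 3 had enough counts to be tested, and Cx3cr1 and Trem2 were at 0. Endothelial and pericyte markers summed to 57.1 to 65.0 CPM in KO and 25.2 to 33.6 CPM in WT, mostly from Flt1, while Cdh5 and Cldn5 were at 0. In such bulk samples fewer cells of a type and less RNA per cell cannot be told apart.

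The first-intron regions were short and lay far from the start sites they were assigned to. Their median width was 280 bp (quartiles 208 and 384, range 200 to 2211 bp), and 1471 of them (21.5%) were exactly 200 bp wide. Each region carries the authors' assigned transcript and the distance to its TSS, and regions within 3 kb of that TSS are annotated as promoter instead. The absolute distance to the assigned TSS began at 3001 bp, with a median of 11840 bp, quartiles of 6431 and 24147 bp and a maximum of 353054 bp. Chromosome X held 29 first-intron regions of its 549 regions (5.28%).

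The assigned gene was often not the gene whose intron held the region. The intron belonged to the assigned gene for 4534 regions (66.1%) and to another gene for 2323 regions (33.9%). For 1380 regions (20.1%) the assigned TSS was that of the very transcript whose first intron held the region, with a median distance of 11085 bp. For 3154 regions (46.0%) the assigned TSS was that of another transcript of the same gene, and 1127 of those regions lay upstream of it. The 6857 regions lay in first introns of 3357 genes, here called host genes, and were assigned to 3986 genes. By symbol in RefSeq (GRCm38.p6), 75.5% of the host genes were protein coding. Of the 1438 genes assigned from within another gene's intron, 15.2% were protein coding, 14.7% were pseudogenes and 49.2% had no matching symbol.

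**Figure D1:**
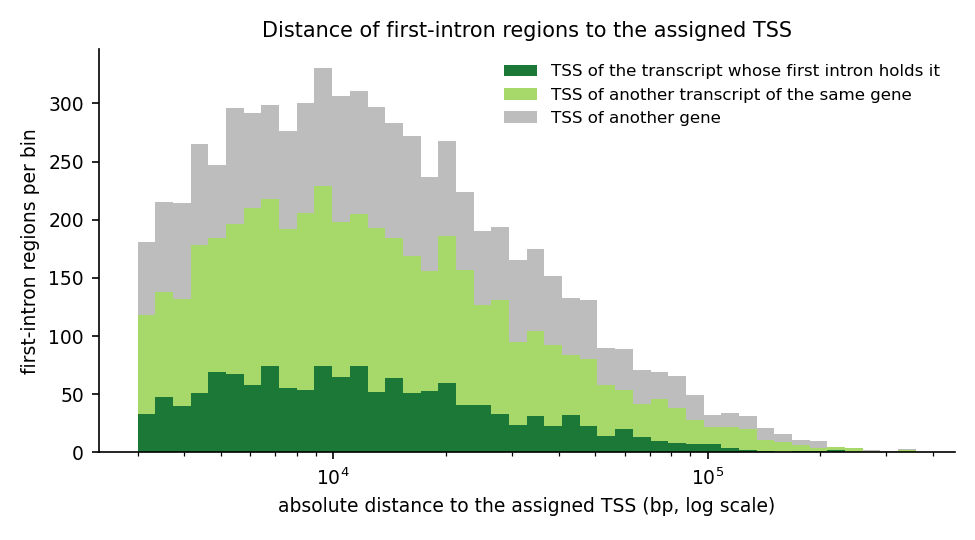
Number of first-intron regions (y axis) by absolute distance to the assigned TSS in bp (x axis, log scale), stacked by whether that TSS belongs to the transcript whose first intron holds the region, to another transcript of the same gene or to another gene. The distances begin at 3001 bp, the median is 11840 bp, and the 1380 regions of the transcript's own TSS are the smallest of the 3 groups.

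Most first-intron regions rested on a peak called in a single library. The authors marked 3910 and 2866 of the regions as peaks in the KO libraries (57.0 and 41.8%) and 1847 and 2015 in the WT libraries (26.9 and 29.4%). Over all regions these shares were 58.6 and 44.4% in KO and 30.1 and 32.9% in WT. The KO libraries thus had more marks in either set, and they also held more reads. A mark in 1 library only was found for 4624 regions (67.4%), against 63.5% of all regions. Of those 4624 regions 2068 and 1247 were marked in a KO library and 638 and 671 in a WT library. Marks in all 4 libraries were found for 491 regions (7.16%), against 10.0% of all regions. The share was 6.91% in later introns and 19.7% in promoters within 1 kb of a TSS. Regions marked in 4 libraries had a median width of 559 bp and median signals of 25.4 and 26.7 CPM in KO and 27.8 and 28.0 CPM in WT. Regions marked in 1 library had a median width of 231 bp and median signals of 8.54 and 8.30 CPM in KO and 8.41 and 8.30 CPM in WT. The counts were thin, with a median of 42 and 34 reads per region in the KO libraries and 32 and 29 reads in the WT libraries.

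The share of the signal in first introns did not differ between the genotypes beyond the spread of the libraries. The regions held 8.74 and 8.62% of the reads in regions in KO, against 8.63 and 8.60% in WT, a difference of 0.0655 percentage points (two-sided exact permutation test over libraries, p = 0.667, where 2 against 2 libraries can give no p below 0.333). Per region, the median log2 fold change, KO over WT, was 0.02 for the 6831 first-intron regions with enough reads to be tested, and 0.01 for all 69209 regions tested. It was 0.05 for later introns, 0.05 for intergenic regions and -0.11 for promoter regions within 1 kb of a TSS. In first introns 51.7% of the tested regions had a positive log2 fold change, against 54.8% in later introns and 38.2% in promoters within 1 kb. These class values share their libraries and scaling, and the differences between classes were not tested. Within first introns the median log2 fold change fell with the number of libraries marked. It was 0.08 for regions marked in 1 library, -0.03 for 2, -0.05 for 3 and -0.10 for 4. The same split of the other classes is not given here.

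No single first-intron region differed between the genotypes after adjustment over all regions. By edgeR's quasi-likelihood test 0 of 6831 regions had an adjusted p under 0.05, where 5 of 69209 regions of any class did (0.00722%; 0.00289% higher and 0.00433% lower). At an unadjusted p under 0.05, 122 first-intron regions were higher in KO and 216 were lower, which is 4.95% of those tested, against 5.35% of all regions (1.7% higher and 3.65% lower). DESeq2 gave 0 adjusted calls among first-intron regions as well. In the authors' deposited table a total of 140 first-intron regions (2.04%) had a p-value under 0.05, against 2.34% of all regions, and every first-intron region had a q-value of 1.

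The lowest p among first-intron regions belonged to Cuedc1, a gene for a protein with a ubiquitin-binding CUE domain. The region (GRCm39, chr11:88009634-88010562, 19518 bp from the assigned TSS) had 146 and 89 reads in KO libraries, against 166 and 161 reads in WT libraries. The KO libraries averaged 31.0 ± 6.53 CPM and the WT libraries 54.7 ± 1.43 CPM (SD, n = 2 each). Both KO values lay below both WT values, but the log2 fold change of -0.81 (SE 0.19) had an adjusted p of 0.0912. The other 3 Cuedc1 first-intron regions included 1 with a positive log2 fold change, and Cuedc1 RNA was 56.7, 53.9 and 38.1 CPM in KO and 61.0, 33.3 and 47.4 CPM in WT, overlapping between the groups.

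The other 9 regions with the lowest p on the lower side were spread over genes of unlike kinds. Kcnk3, a leak potassium channel, had 62 and 44 reads in KO at its region and 75 and 90 reads in WT (log2 fold change -0.97, SE 0.26, adjusted p = 0.276). Galnt18, of the enzyme family that starts mucin-type O-glycosylation, had 45 and 41 reads in KO and 85 and 59 in WT (adjusted p = 0.279). At Cdrt4 the counts were 28 and 24 reads in KO and 56 and 48 in WT (log2 fold change -1.31). Ppard encodes a nuclear receptor for fatty acids, and its region, 3226 bp from the TSS, had 65 and 70 reads in KO and 111 and 79 in WT. The remaining 5 lay in 2610005L07Rik, Gm45901, Osbpl10, Zfp697 and Gm11735, with log2 fold changes of -1.91, -0.93, -1.10, -0.96 and -0.93 and adjusted p of at least 0.553. Of these genes none was called in RNA, and Cdrt4, Gm45901 and Gm11735 had too few RNA counts to be tested.

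On the higher side the lowest p belonged to Gmds, the enzyme of the first step of GDP-fucose synthesis from GDP-mannose. Its region (chr13:32458083-32458500) had 62 and 57 reads in KO, against 16 and 25 reads in WT, or 16.01 ± 1.25 CPM in KO and 6.91 ± 2.46 CPM in WT (SD, n = 2 each; log2 fold change 1.21, SE 0.38, adjusted p = 0.618). The next was a region of Tshz2, described below with its neighbours. Smad9, a transcription factor of BMP signalling, had 45 and 40 reads in KO and 13 and 11 in WT (log2 fold change 1.5). Phactr2, a phosphatase and actin regulator, had 54 and 50 reads in KO and 22 and 14 in WT (1.21). Frs2, the docking protein of FGF receptors, had 32 and 37 reads in KO and 8 and 9 in WT (1.7). A region in the first intron of Foxp1, a forkhead transcription factor, was assigned to the predicted gene Gm55375 and had 108 and 95 reads in KO and 31 and 67 in WT (0.72). The last 4 lay in Rab20, Mb21d2, A830082K12Rik and Gm15997, with log2 fold changes of 1.40, 0.93, 0.74 and 1.27. The adjusted p of these 10 regions was 0.618 or more, and apart from Tshz2 none of the genes was called in RNA.

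**Figure D2:**
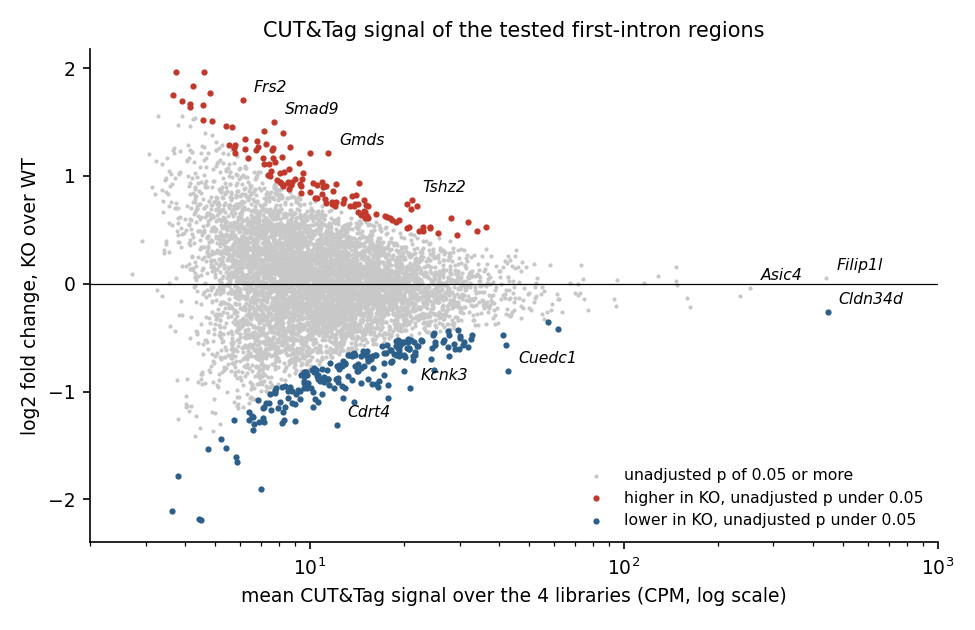
Log2 fold change, KO over WT, of each tested first-intron region (y axis) against its mean CUT&Tag signal over the 4 libraries in CPM (x axis, log scale), with regions at an unadjusted p under 0.05 coloured. Of 6831 regions 122 are coloured as higher and 216 as lower, and no region passed after adjustment.

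The 10 first-intron regions with the highest mean signal had log2 fold changes between -0.26 and 0.16, and none passed the test. They held 2.55 and 2.59% of the first-intron reads in KO and 2.67 and 2.66% in WT. A region of Filip1l, which encodes a filamin-interacting protein, had 1773 and 1573 reads in KO and 1414 and 1188 in WT (449 ± 23.9 CPM in KO and 434 ± 32.7 CPM in WT, log2 fold change 0.05, SE 0.11). A region of the claudin-family gene Cldn34d on chromosome X had 1688 and 1348 reads in KO and 1536 and 1377 in WT (406 ± 8.61 CPM in KO and 487 ± 14.4 CPM in WT, log2 fold change -0.26, SE 0.11, adjusted p = 0.879). Both of these genes had RNA levels under 1 CPM in each of the 6 libraries. Regions of Asic4, an acid-sensing ion channel family gene, and of Ntm, an adhesion molecule of the IgLON family, followed with log2 fold changes of -0.04 and -0.11. The other 6 regions lay in 2700054A10Rik, Zfat, Rora, Rapgef1, Gm20619 and A530065N20Rik, with log2 fold changes between -0.22 and 0.16. The RNA of these genes ranged widely: Cldn34d and A530065N20Rik had no RNA count in any of the 6 libraries, while Rapgef1, an exchange factor for the GTPase Rap1, had 113 to 134 CPM in KO and 104 to 144 CPM in WT.

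When the reads of a gene's first-intron regions were added together, 2 genes passed, Tshz2 higher and Tmem267 lower in KO. Sums were made per assigned gene and per annotation class and tested over all 43570 sums with enough reads, of which 19 had an adjusted p under 0.05 (0.0436%; 0.00689% higher and 0.0367% lower). First-intron sums made up 3969 of these. The next lowest p was that of Kcnk3, with an adjusted p of 0.196. These 2 genes are described in turn, with RefSeq's sequence at the gene start and the gene's promoter region.

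RefSeq's promoter windows (GRCm38.p6, 250 bases before to 50 bases after the gene start) are printed for both, although the regions are on GRCm39 and coordinates of the 2 builds are not interchangeable. The Tmem267 windows could not be tied to the start from which the distances of its regions are measured, which lies 443 kb from the start of its promoter region in the authors' table. Capitals mark CpG dinucleotides.
Tshz2, chr2:169632259-169632558, plus strand: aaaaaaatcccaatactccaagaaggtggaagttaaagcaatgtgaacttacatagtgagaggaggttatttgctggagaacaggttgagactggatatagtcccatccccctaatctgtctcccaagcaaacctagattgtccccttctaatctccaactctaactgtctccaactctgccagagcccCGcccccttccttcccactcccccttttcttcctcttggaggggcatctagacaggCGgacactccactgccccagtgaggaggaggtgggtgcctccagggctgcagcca
Tmem267 first entry, chr13:119487836-119488135, plus strand: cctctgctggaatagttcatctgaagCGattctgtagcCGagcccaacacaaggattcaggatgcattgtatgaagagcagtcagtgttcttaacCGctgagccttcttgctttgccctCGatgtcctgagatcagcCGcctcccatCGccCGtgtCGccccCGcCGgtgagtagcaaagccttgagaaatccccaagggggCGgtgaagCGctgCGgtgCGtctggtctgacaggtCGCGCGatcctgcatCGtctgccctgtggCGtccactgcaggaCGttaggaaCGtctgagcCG
Tmem267 second entry, chr13:119488223-119488522, plus strand: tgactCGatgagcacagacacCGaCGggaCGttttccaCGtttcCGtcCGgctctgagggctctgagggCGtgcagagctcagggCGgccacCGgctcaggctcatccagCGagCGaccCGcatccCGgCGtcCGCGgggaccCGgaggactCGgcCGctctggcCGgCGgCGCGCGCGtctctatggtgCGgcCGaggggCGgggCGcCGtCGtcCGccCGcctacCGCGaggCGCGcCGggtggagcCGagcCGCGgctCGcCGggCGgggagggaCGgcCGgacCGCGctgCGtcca
The Tshz2 window holds 2 CpG and is 52.0% G or C, while the Tmem267 windows hold 22 and 50 CpG and are 58.7 and 76.0% G or C. Over the 32851 windows of all genes the median is 7 CpG, and 85.9% hold at least as many as Tshz2. On both strands, none of the 3 windows holds TGANTCA (AP-1), CAGCTG (an E-box), ACAAAG (SOX), the NRF1 palindrome or the full NFI palindrome, which occur in 7.81, 16.3, 18.7, 0.971 and 0.0365% of all windows. In the 3252 windows of host genes the same motifs occur in 6.83, 16.8, 16.2, 1.14 and 0.0308%.

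Tshz2, a zinc-finger transcription factor of the teashirt family, had 9 first-intron regions assigned to it. Their summed reads were 524 and 409 in KO libraries, against 297 and 223 in WT libraries. That is 129 and 121 CPM in KO and 95.8 and 76.6 CPM in WT, with no overlap, and means of 125 ± 5.13 CPM in KO and 86.2 ± 13.6 CPM in WT (SD, n = 2 each; log2 fold change 0.53, SE 0.12, adjusted p = 0.0330). The log2 fold change was positive in 9 of the 9 regions, from 0.20 to 1.26. As these regions make up the called sum, their shared sign is no separate support for it. Some of them were marked as a peak in all 4 libraries and others in 1 library only. These 9 regions lay 10.0 to 242 kb behind the start of transcript ENSMUST00000109159 (chr2:169474933-169755013, plus strand). The region with the largest signal, 16.02 kb behind that start, had 135 and 90 reads in KO and 76 and 53 in WT. The region at 156 kb (chr2:169630377-169631209) had 120 and 82 reads in KO and 56 and 38 in WT (log2 fold change 0.78, SE 0.25). The one at 67.2 kb, with the largest log2 fold change of the 9, had 30 and 30 reads in KO and 9 and 11 in WT.

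The difference at Tshz2 was not seen along the whole gene. A further 7 regions lay in the first intron of a second Tshz2 transcript, ENSMUST00000123300 (chr2:169726813-169913736), and the authors assigned 6 of them to AY702102 and 1 to Zfp217. Of these 7, 2 were higher and 5 were lower in KO, with a median log2 fold change of -0.33. Summed over all 16 regions in first introns of Tshz2 transcripts, the log2 fold change was 0.28 with an adjusted p of 0.594. The promoter region of Tshz2, at the start of ENSMUST00000109159, had 22 and 21 reads in KO and 23 and 19 in WT (log2 fold change -0.27, SE 0.57), too few to show a change of the size seen in the intron. The sum over the 9 regions lost its call without KO 1 (0.49, adjusted p = 0.758), without KO 2 (0.57, adjusted p = 0.321) and without WT 2 (0.38, adjusted p = 0.677), and kept it without WT 1 (0.70, adjusted p = 0.00758).

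Tshz2 RNA was higher in KO as well. It had 23.7, 21.0 and 22.5 CPM in KO libraries, against 6.20, 3.58 and 5.09 CPM in WT libraries (log2 fold change 2.18, SE 0.20, adjusted p = 0.00133). The groups did not overlap.

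Tmem267 had 6 first-intron regions, all lower in KO by their log2 fold change. They lay within 1 stretch of chromosome 13, 3510 to 9543 bp upstream of the assigned start, in the first intron of transcript ENSMUST00000223912. Their summed reads were 874 and 633 in KO libraries, against 930 and 701 in WT libraries. After scaling to the reads in regions the sums were 201 ± 18.9 CPM in KO and 271 ± 41.8 CPM in WT (SD, n = 2 each; log2 fold change -0.43, SE 0.10, adjusted p = 0.0243). The 6 regions, which make up that sum, ranged from -0.67 to -0.32, so their shared sign is no separate support for it. In the region at chr13:120060446-120060793 the counts were 143 and 111 reads in KO and 158 and 144 in WT, or 33.9 ± 1.40 CPM in KO and 50.5 ± 0.900 CPM in WT (log2 fold change -0.57, SE 0.19). The 1 promoter region assigned to Tmem267 (chr13:119624656-119625592) belongs to another transcript, ENSMUST00000099147, whose start lies 443 kb from the start that the 6 regions are assigned to, so it is not the promoter beside them. It had 209 and 165 reads in KO and 158 and 144 in WT (50.1 ± 1.65 CPM in KO and 50.2 ± 1.06 CPM in WT, log2 fold change -0.00, SE 0.17). Tmem267 RNA was 16.8, 17.3 and 18.6 CPM in KO and 27.6, 34.5 and 26.3 CPM in WT (log2 fold change -0.75, SE 0.14, adjusted p = 0.0262), without overlap. The intron sum lost its call without KO 1, without KO 2 and without WT 1 (adjusted p = 0.363, 0.837 and 0.734), with log2 fold changes of -0.53, -0.34 and -0.26.

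**Figure D3:**
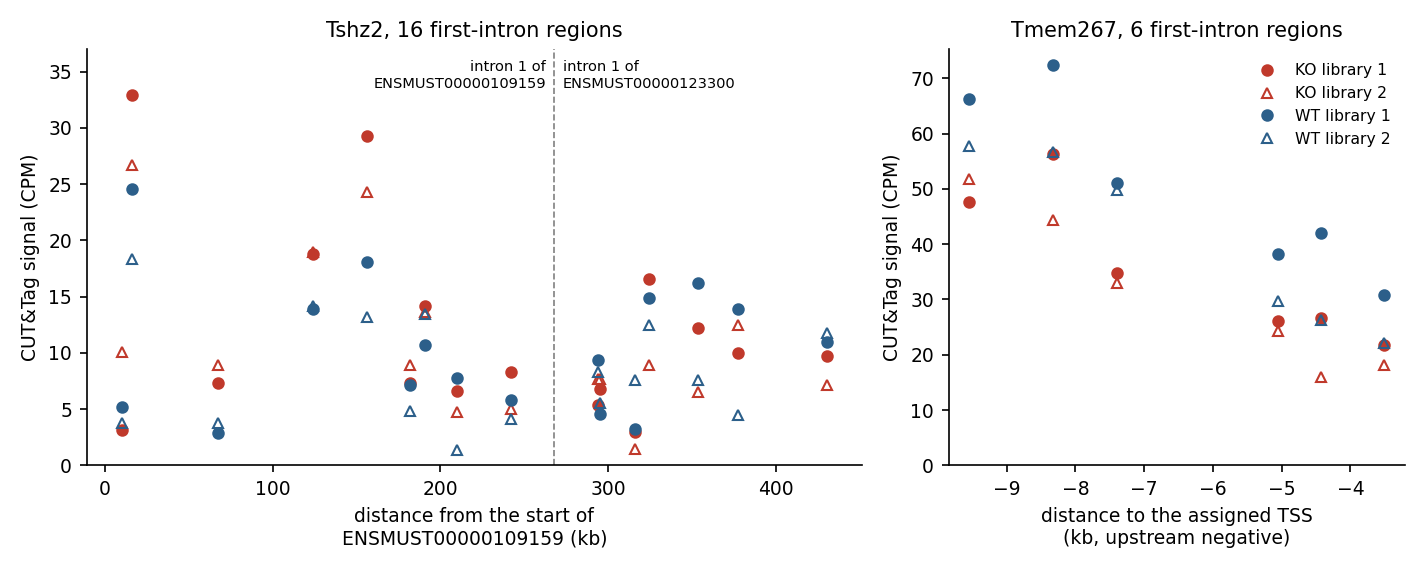
CUT&Tag signal in CPM (y axis, from 0) of each first-intron region of Tshz2 by distance in kb from the start of ENSMUST00000109159 (left) and of Tmem267 by distance in kb to the assigned TSS (right), with 1 point per library, circles for library 1 and triangles for library 2. The dashed line only separates the regions of the 2 Tshz2 introns. The 9 regions to its left are higher in KO by their log2 fold change, 5 of the 7 to its right are lower, and the 6 Tmem267 regions are lower.

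A larger share of the genes with a first-intron region than of all genes was called in RNA-seq. Of the 3986 assigned genes 2007 had enough counts to be tested, and 63 were higher and 62 lower in KO at an adjusted p under 0.05. That is 6.23% of them, against 3.43% of all 15298 genes tested (1.77% higher and 1.66% lower). For the host genes it was 71 higher and 71 lower of 2282 tested, or 6.22%. Genes that hold a region in a later intron but none in a first intron had 57 higher and 49 lower of 2938 tested, or 3.61%. The median level of the tested genes in these sets lay close together, at 16.1 to 17.2 TPM (counts scaled to gene length and library size) in KO libraries and 15.4 to 18.4 TPM in WT libraries for the assigned genes, against 16.6 to 17.1 TPM in KO and 15.2 to 17.4 TPM in WT for all genes. TPM divide the counts by gene length, while the calls rest on the counts, so close TPM do not mean close counts. The counts of these sets were not compared, and the difference between the shares called was not tested. The calls among assigned genes were 20 higher and 17 lower without KO 1 and again without KO 2, 31 and 37 without WT 2, and 19 and 13 without WT 3, while DESeq2 called 108 and 116. The share of assigned genes called was 1.81% without KO 1, 1.80% without KO 2, 3.32% without WT 2, 1.57% without WT 3 and 10.6% by DESeq2. Beside these shares, 1.15, 1.14, 2.00, 0.931 and 5.54% of all genes tested were called at the same settings. The astrocyte, neuron and Flt1 values given above moved with genotype too, and their part in these counts was not tested.

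The 10 assigned genes with the lowest RNA p on the higher side encode proteins of unlike kinds. Sulf1, an extracellular heparan sulfatase, had 42.9, 44.9 and 44.8 CPM in KO libraries, against 6.33, 6.86 and 6.67 CPM in WT (log2 fold change 2.74, SE 0.11, adjusted p = 9.88e-05). Its 2 first-intron regions, both in its own intron, summed to 143 and 102 reads in KO and 129 and 86 in WT, and 1 was higher and 1 lower. Lrfn2, a synaptic adhesion molecule, rose to 8.06, 6.94 and 5.80 CPM in KO, against 0.844, 0.658 and 0.733 CPM in WT (log2 fold change 3.21, SE 0.22, adjusted p = 0.000368). Its region had 148 and 126 reads in KO and 107 and 86 in WT (log2 fold change of the sum 0.20, SE 0.20). Cdon, a co-receptor of hedgehog signalling, had 53.4, 48.3 and 59.0 CPM in KO and 15.6, 16.7 and 17.2 CPM in WT, with 48 and 42 region reads in KO and 46 and 26 in WT.

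Kcnk2, a leak potassium channel of the same family as Kcnk3, had 37.8, 35.7 and 35.8 CPM of RNA in KO and 12.8, 12.04 and 11.3 CPM in WT (log2 fold change 1.60). Lima1, an actin-binding protein, had 86.6, 83.1 and 81.0 CPM in KO and 36.5, 31.9 and 35.8 CPM in WT (1.27). Both its first-intron regions had positive log2 fold changes, and their reads summed to 119 and 112 in KO and 69 and 77 in WT (log2 fold change 0.36, SE 0.23, adjusted p = 0.852). Trim9, a brain-enriched ubiquitin ligase, had 926, 976 and 955 CPM in KO and 489, 444 and 462 CPM in WT (1.04), and 1 of its 2 regions was higher and 1 lower. Lmo1, a LIM-only transcription cofactor, was higher in RNA (2.02), while its region had 45 and 42 reads in KO and 67 and 41 in WT (log2 fold change of the sum -0.61). Lama1, a laminin chain of basement membranes, was higher in RNA (1.89), with 34 and 29 region reads in KO and 17 and 15 in WT (0.67, SE 0.54). The non-coding gene Sox2ot had 63.3, 54.3 and 69.9 CPM in KO and 14.0, 15.9 and 15.0 CPM in WT (2.06). It overlaps Sox2, and without a stated strand setting reads of the 2 genes cannot be told apart. Sox2 itself had 186, 198 and 160 CPM in KO and 197, 159 and 175 CPM in WT (log2 fold change 0.03, adjusted p = 0.957), overlapping between the groups.

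The 10 on the lower side were of unlike kinds too. Nid1, a basement membrane linker protein, fell to 6.62, 6.86 and 6.46 CPM in KO, against 26.9, 29.4 and 30.9 CPM in WT (log2 fold change -2.13, SE 0.12, adjusted p = 0.000293). Its region had 38 and 12 reads in KO and 27 and 12 in WT, with a log2 fold change of 0.02. Gfpt2, an enzyme of the hexosamine pathway, fell to 47.2, 51.2 and 50.1 CPM in KO, against 117, 122 and 125 CPM in WT, while its region had 66 and 69 reads in KO and 37 and 61 in WT (0.16, SE 0.29). Bcas1, a marker of early myelinating oligodendrocytes, fell to 21.4, 20.8 and 15.8 CPM in KO, against 98.3, 75.4 and 79.8 CPM in WT (log2 fold change -2.13). Its assigned region had 59 and 31 reads in KO and 43 and 39 in WT. Another region in its first intron, assigned to Bcas1os1, had 67 and 62 reads in KO and 32 and 38 in WT (0.56, SE 0.32). Bcas1 is not on the oligodendrocyte lineage list, of which 14 genes were tested in RNA, with 1 higher (Myrf) and 0 lower. Cyp24a1, the enzyme that breaks down active vitamin D, fell to 0.198, 0.416 and 0.428 CPM in KO, against 3.04, 3.49 and 3.36 CPM in WT. Its assigned region lies in the first intron of Pfdn4, not of Cyp24a1, and had 81 and 56 reads in KO and 45 and 35 in WT.

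Grik1, a kainate receptor subunit, had 2.12, 2.12 and 2.10 CPM of RNA in KO and 6.08, 7.28 and 8.02 CPM in WT (log2 fold change -1.75), and 2 of its 4 regions were higher and 2 lower. Ubash3b, a phosphatase that acts on tyrosine kinase signalling, had 32.3, 36.5 and 34.8 CPM in KO and 64.9, 65.7 and 63.2 CPM in WT (-0.90), and its 3 regions all had negative log2 fold changes (sum -0.27, SE 0.15, adjusted p = 0.828). Svep1, a large secreted matrix protein, was lower in RNA (-1.25), with 47 and 32 region reads in KO and 15 and 22 in WT (0.77, SE 0.46). Cnpy1, Pdlim3 and Ablim1, of which Pdlim3 and Ablim1 encode LIM-domain proteins of the actin cytoskeleton, were lower by -2.32, -3.38 and -0.91 on the log2 scale. For the 10 genes higher in RNA, 17 of 21 regions had a positive log2 fold change (median 0.32, 9 of the 21 being Tshz2's). For the 10 lower genes it was 10 of 18 (median 0.08).

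**Figure D4:**
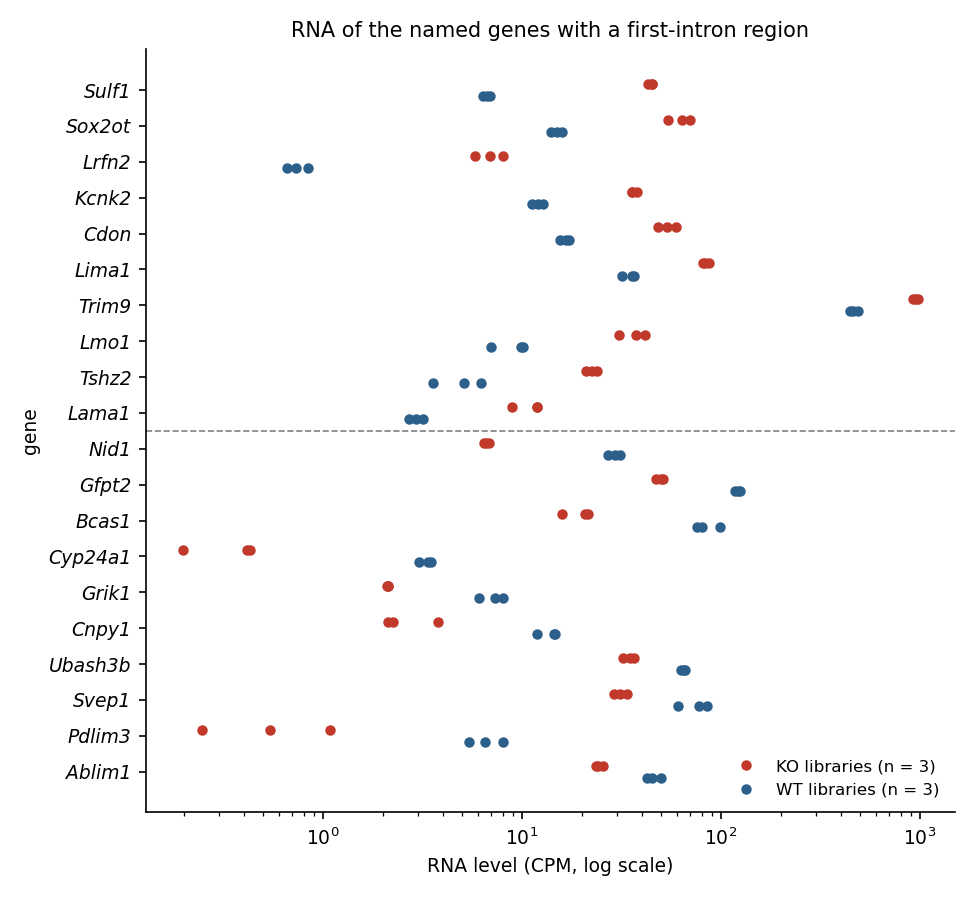
RNA level in CPM (x axis, log scale) of the 10 genes with the lowest p among those higher in KO (above the dashed line) and the 10 among those lower (below it), with 1 point per library and the 3 KO libraries drawn above the 3 WT libraries. Sulf1 reads 42.9 to 44.9 CPM in KO and 6.33 to 6.86 CPM in WT, and Pdlim3 at the other end reads 0.247 to 1.08 CPM in KO and 5.38 to 7.98 CPM in WT.

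Over all RNA-called genes the first-intron signal had medians near 0. Genes higher in RNA had 138 tested regions, of which 83 (60.1%) had a positive log2 fold change, with a median of 0.11. Genes lower in RNA had 126 tested regions, of which 63 had a positive one, with a median of -0.01. Over all 6831 tested first-intron regions 51.7% were positive, with a median of 0.02. Without Tshz2 the median for the genes higher in RNA was 0.04 over 129 regions. At an unadjusted p under 0.05 the genes higher in RNA had 8 regions higher and 2 lower, 3 of the 8 being Tshz2's, and the genes lower in RNA had 1 region higher and 7 lower. Over all first-intron regions tested these shares were 1.79% higher and 3.16% lower. With each region given to its host gene, the medians were 0.04 for 177 regions of genes higher in RNA and 0.03 for 203 regions of genes lower in RNA. These are descriptions, as no test was run over the lists.

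**Figure D5:**
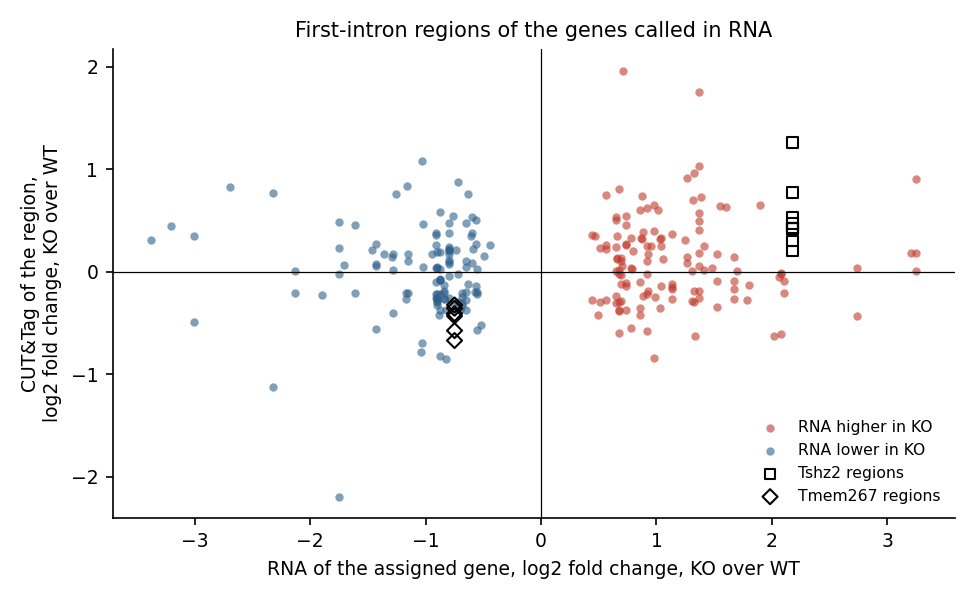
CUT&Tag log2 fold change of each first-intron region (y axis) against the RNA log2 fold change of its assigned gene (x axis), both KO over WT, for the genes called in RNA, with open squares for Tshz2 and open diamonds for Tmem267. The 138 regions of genes higher in RNA have a median of 0.11 and the 126 regions of genes lower in RNA a median of -0.01.

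Several genes carried long runs of first-intron regions. By host gene, Dpp6, an auxiliary subunit of A-type potassium channels, held 26 regions. Rbms3, an RNA-binding protein, and Cadm2, a synaptic adhesion molecule, held 24 each. Rora, a nuclear receptor, held 22, Pde10a, a cyclic nucleotide phosphodiesterase, 21, and Kcnip1, a potassium channel interacting protein, 20. Opcml and Ntm, adhesion molecules of the IgLON family, and Kcnd2, an A-type potassium channel, held 19 each. For Rora, whose 22 regions were assigned to itself too, the sums were 379 and 387 CPM in KO and 378 and 408 CPM in WT (log2 fold change -0.04, SE 0.09). Of the host genes just named only Cadm2 was called in RNA, where 6.22% of all host genes tested and 3.43% of all genes tested were. Tshz2, which held 16 regions, was called too, as given above. Cadm2 RNA was at 39.3, 41.2 and 50.9 CPM in KO and 63.9, 85.4 and 79.1 CPM in WT (log2 fold change -0.80, SE 0.15, adjusted p = 0.0310). Of its 24 regions 18 had a positive log2 fold change and 6 a negative one (median 0.22). For Kcnma1, the calcium-activated BK potassium channel, 11 of 13 assigned regions had a negative log2 fold change, and the sum did not pass (-0.25, unadjusted p = 0.0176, adjusted p = 0.742).

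Among the gene lists, synapse organisers and adhesion molecules held the most first-intron regions. Of 42 listed genes 20 were assigned a first-intron region, all 20 were tested in RNA, and 2 were higher (Lrfn2 and Tenm2) and 5 lower, among them Cadm2, Cntn1, Ptprd and Tenm4. Of all genes tested in RNA 1.77% were higher and 1.66% lower, and of all assigned genes tested 3.14% and 3.09%. Cntn1, a neuronal contactin, had 206, 191 and 221 CPM in KO and 296, 324 and 314 CPM in WT, while its 3 regions all had positive log2 fold changes (median 0.38). The adhesion phosphatase Ptprd had 11.9, 10.6 and 16.2 CPM in KO and 24.7, 37.9 and 31.4 CPM in WT. The 75 tested regions of the list had 46 positive and 29 negative log2 fold changes, with a median of 0.09, beside 0.02 for all first-intron regions. Of 13 axon guidance genes with a region 1 was higher in RNA, the ephrin receptor Ephb2, at 22.5, 22.6 and 19.4 CPM in KO and 14.6, 9.78 and 11.2 CPM in WT, though 3 of its 4 regions had negative values. The guidance receptor Dcc had 11.02, 9.19 and 13.1 CPM in KO and 6.42, 7.48 and 7.68 CPM in WT, without passing (adjusted p = 0.114), and its 3 regions were positive.

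Of 10 extracellular matrix genes with a region 9 were tested in RNA, with Sulf1 and Lama1 higher and Nid1 lower. From that list 30 genes were tested in all, with 7 higher and 1 lower, beside 1.77% and 1.66% of all genes. Of 3 neural stem and radial glia genes with a region, Hopx, a homeodomain-only cofactor, was lower, at 3.90, 4.32 and 3.54 CPM in KO and 8.90, 8.22 and 7.10 CPM in WT (log2 fold change -1.04, adjusted p = 0.0152). None of the tested genes with a region passed in the lists of intermediate progenitors and neurons (5 genes, 16 regions, median log2 fold change -0.32), astrocytes (3 genes, 8 regions, 0.10), the oligodendrocyte lineage (6 genes, 12 regions, 0.01), Notch and Wnt (6 genes, 14 regions, 0.11) or arginine methylation and JmjC oxygenases (2 genes, 2 regions, -0.42). With each region given to its host gene, the medians of these lists, in the same order, were -0.098 (30 regions), 0.097 (12), 0.17 (13), 0.11 (45) and 0.24 (4). Of the 40 brain patterning transcription factors 31 were tested in RNA, with 6 higher and 9 lower, beside 1.77% and 1.66% of all genes. Of those 31, 1 (3.23%) had a first-intron region assigned to it, against 13.1% of all genes tested in RNA, a difference that was not tested.

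Median signal fell with distance to the assigned TSS in each library and changed little with RNA level. Regions under 10 kb from the assigned TSS had median signals of 10.98 and 10.97 CPM in KO and 10.997 and 11.1 CPM in WT. The medians were 10.2 and 10.1 CPM in KO and 10.0 and 10.0 CPM in WT at 10 to 30 kb, and 9.51 and 9.19 CPM in KO and 9.38 and 8.997 CPM in WT at 30 to 100 kb. For the 161 regions over 100 kb away they were 8.54 and 8.30 CPM in KO and 8.09 and 8.30 CPM in WT. The median log2 fold change was 0.01, 0.02, 0.02 and 0.06 in these 4 bins. By the mean RNA level of the host gene over the 6 libraries, from counts divided by gene length, the median signal lay between 9.19 and 10.5 CPM in KO and between 9.69 and 10.7 CPM in WT in the 4 bins from under 1 TPM to 100 TPM or more. The median log2 fold change was 0.07 under 1 TPM, 0.04 at 1 to 10 TPM, -0.03 at 10 to 100 TPM and -0.04 at 100 TPM or more.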

How the data were processed

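NSPCs were measured by RNA-seq (3 KO and 3 WT libraries) and by CUT&Tag (2 KO and 2 WT libraries), grouped by sample title and genotype label. HISAT2, StringTie and GRCm39 are named in the submitters' processing notes. For the counting of RNA reads (tool, strand setting) and the calling of peaks, nothing is given in the sources used here. The authors' RNA table holds expected counts per gene for 57180 genes as deposited, and the non-whole values (8428 genes) were rounded for the tests. The authors' CUT&Tag table holds deposited counts of reads per region, a mark per library with a called peak, and RPM, which by the values scale the count plus 1 to a total for each library. Its log2 fold change, its p-value and q-value, the annotation and the distance are the authors' too, from a test and an annotation tool not named.

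Host genes and transcripts were read from the annotation text. Regions, sums per gene and genes were each tested over the whole table with the quasi-likelihood test of edgeR 4.0.16 (R 4.3.3), after TMM scaling, filterByExpr (minimum count 10) and robust dispersion. Adjustment was by Benjamini-Hochberg over all 69209 regions, 43570 sums or 15298 genes, with calls at 0.05. Checked on simulated data, the scripts recovered the signs put in. The changes simulated in sums were larger than those of the Tshz2 and Tmem267 sums, so the check does not cover effects of that size. CPM follow the TMM scaling. CUT&Tag CPM refer to reads inside regions, so a change common to all regions cannot be seen without a spike-in. TPM were computed from the counts and the deposited gene lengths.

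The text names the 10 regions with the lowest p in each direction, the 10 with the highest mean signal, the 10 RNA-called genes with the lowest p in each direction (no predicted or clone names), up to 4 members of each list by RNA p and the genes with the most regions. Tmem267, the further Tshz2 and Cuedc1 regions and the host genes with the most regions were chosen after their values were seen. A few members of these lists go unreported here. The members and the 15 gene lists were chosen with earlier results of these data known. Sequences came from RefSeq (GRCm38.p6). The sequence of the regions themselves was not used here.

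The alternatives tried were DESeq2 1.42.0, library totals, RLE size factors, other count filters, no robust dispersion, the replicate number as a block, each library left out in turn, the mitochondrial share as a covariate, the host gene in place of the assigned gene, and 3 added after the values were seen (sums by host gene, without Tshz2, and all first-intron regions of Tshz2).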

Additional observations from a re-analysis of the deposited data

How the results depend on the processing

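None of the 20 regions and 20 genes named by p, nor either called sum, changed direction under any alternative run, but the read-share difference and the median for genes lower in RNA, neither of them called, changed sign under the settings named below. No first-intron region passed under any setting run, and DESeq2 gave 62 higher and 107 lower at an unadjusted p under 0.05. Among assigned genes, DESeq2 called 108 higher and 116 lower in RNA, and the fit with the mitochondrial share as a covariate 247 and 271. With that covariate 25.8% of the assigned genes were called, against 15.3% of all genes tested. Leaving out 1 RNA library gave 19 to 52 higher and 13 to 62 lower. The 20 genes named by p kept their call under each of these 6 omissions, the block and the covariate. The cause of these shifts was not tested. Leaving out a CUT&Tag library, with the lone library assumed to vary like the other group, gave 0 to 2 called first-intron sums, with log2 fold changes of 0.38 to 0.70 for Tshz2 and -0.58 to -0.26 for Tmem267. With sums by host gene 1 passed, Tmem267 (-0.42, adjusted p = 0.00846). In regions marked in every library, the difference in read share was -0.0254 points (0.0655 over all first-intron regions), and the medians for genes higher and lower in RNA were 0.0068 (11 regions) and -0.24 (14 regions). For genes higher in RNA the median was 0.043 by host gene, 0.043 without Tshz2, 0.055 with the covariate and 0.049 to 0.16 without 1 library. For genes lower in RNA, at -0.0056 over all, it was 0.032 by host gene and -0.042 with the covariate. Without 1 library it was -0.053 to 0.023, the last without WT 2.

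The values showed no clear pairing of the libraries by replicate number, but they cannot tell whether libraries were prepared in pairs. Same-numbered deviations correlated at 0.0156 in CUT&Tag, where the deviations of the 2 libraries of a group mirror each other. In RNA they correlated at 0.609, -0.518 and 0.312, and not every library correlated best with its own number. With the replicate block the RNA calls among assigned genes were 28 higher and 23 lower, or 2.54%, against 1.5% of all genes tested. No first-intron region passed with the block, and the sums of Tshz2 (0.54, adjusted p = 0.0281) and Tmem267 (-0.42, adjusted p = 0.0273) still passed. With 2 libraries a group and a median of 29 to 42 reads per region, differences as large as those of Gmds or Cuedc1 did not pass.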

Other observations

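In RefSeq (GRCm38.p6) the protein-coding genes Zfp217, Bcas1 and Cyp24a1 follow Tshz2 on chromosome 2 in that order, and they did not share its RNA difference. Tshz2 was higher in KO, while Bcas1 and Cyp24a1 were lower by -2.13 and -3.20 on the log2 scale, and Zfp217, to which the last of the Tshz2 intron regions was assigned, had 18.3, 19.9 and 18.8 CPM in KO and 22.7, 20.4 and 24.8 CPM in WT without passing (adjusted p = 0.445). These genes were grouped after their values were seen.

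In Foxp1, 4 of the 4 first-intron regions assigned to it had a positive log2 fold change, and the 6 regions in its own first introns had a median of 0.45. Foxp1 RNA was 6.48, 7.27 and 7.39 CPM in KO and 9.75, 10.3 and 11.995 CPM in WT, with a log2 fold change of -0.60 that did not pass (SE 0.15, adjusted p = 0.0795). Smad9, whose first intron held the region with the third-lowest p among those higher in KO, had 3.11, 2.70 and 2.76 CPM of RNA in KO and 4.64, 4.36 and 5.01 CPM in WT (adjusted p = 0.0687). Of its 3 first-intron regions 2 had a positive log2 fold change and 1 a negative one, with a median of 0.16. Both genes were picked from those whose regions are named by p above. In both, neither the RNA nor any first-intron region passed the test.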
